A study of Mus musculus with 12 samples.

Results

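Histone and DNA modifying enzymes are the proteins that write and erase the chemical marks carried by chromatin. The 51 genes described here were taken by name from the 55401 genes of the count table: protein-coding genes of the histone deacetylases (*Hdac*), the sirtuins (*Sirt*), the histone lysine demethylases (*Kdm*, without *Kdm5c*, *Kdm5d* and *Kdm6a*), the Kmt2 and Kmt5 histone lysine methyltransferases, the DNA methyltransferases (*Dnmt1*, *Dnmt3a* and *Dnmt3b*), the TET dioxygenases, and the core of Polycomb repressive complex 2 (*Ezh1*, *Ezh2*, *Eed* and *Suz12*). The rule used names only and no measured value, and each of the 51 genes had enough reads to be tested. RNA was measured in satellite cells, the stem cells of skeletal muscle, which were sorted by FACS as Pax7-ZsGreen+ cells from mouse hind limbs. All mice were CXCR4 FL/FL, carried the Pax7-ZsGreen reporter and received tamoxifen at 80 mg/kg on 5 days. The *Cxcr4* KO mice also carried Pax7-creERT2, a tamoxifen-dependent recombinase made in *Pax7*-expressing cells, and the *Cxcr4* WT mice had the floxed alleles without cre. Freshly sorted cells are called quiescent (4 WT and 4 KO libraries) and cells cultured overnight after the sort are called activated (2 WT and 2 KO libraries). The paper reports that MYOD1 protein, an early sign of activation, appears during the isolation itself. Quiescent here therefore means freshly dissociated and sorted. The paper states that all experiments used adult mice and that its sample sizes count independent mice, but gives no sample size for these libraries. The labels do not give the age of the mice or say that each library came from a separate mouse. The p-values therefore measure only the spread between these libraries, which may be technical.

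Acetyl groups on histone tails are removed by the zinc-dependent HDACs and by the NAD-dependent sirtuins, and go with silent chromatin once removed. Methyl groups on histone lysines are added by SET domain enzymes such as the Kmt2 (MLL) family, the Kmt5 family and the Ezh subunits, and are removed by the amine oxidases Kdm1a and Kdm1b or by the Jumonji demethylases, which need iron and 2-oxoglutarate. Methyl groups on DNA are added by the Dnmt enzymes and oxidized by the Tet enzymes. In satellite cells these enzymes are known for their part in holding muscle genes silent or ready during quiescence and in opening them upon activation.

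Levels are given as CPM, counts per 1000000 counts of the library after scaling with edgeR's TMM method, and changes as log2 fold changes from a single edgeR quasi-likelihood fit over the 12 libraries, with the standard error (SE) and the p-value adjusted over all 25771 genes tested. A gene is said to have risen or fallen where its adjusted p was under 0.05. Total counts were 12775593 to 23717013 per quiescent library and 3172164 to 5427280 per activated library, so that low genes are less precisely measured after culture. Several properties differed between the states in every library. The ribosomal RNA gene *CT010467.1* took 0.295% to 0.807% of counts in quiescent and 11.5% to 40.3% in activated libraries. Transcripts of the Y chromosome were present in every quiescent library, with *Ddx3y* at 289 to 570 CPM, and at 0 to 2.28 CPM in activated libraries, whereas *Xist*, which is transcribed from the inactive X, was at 1.20 to 7.17 CPM in quiescent and 451 to 817 CPM in activated libraries. The state therefore cannot be told apart from depth, from ribosomal RNA or from the sex of the mice. *Hdac6* and *Hdac8* lie on the X chromosome. Markers of satellite cells were present in each library: the 9 markers summed to 5143 to 8551 CPM in quiescent and 2316 to 3524 CPM in activated libraries, *Pax7* itself was at 180.6 to 482 CPM and 71.2 to 129.5 CPM, and 7 of 9 fell in WT and 8 of 9 in KO. The 7 muscle fibre markers summed to 256 to 868 CPM in quiescent and 6167 to 15210 CPM in activated libraries, and all 7 rose in each genotype. Their part in the results was not tested. In bulk RNA, fewer cells of a type and less RNA per cell cannot be told apart.

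To ask which of these enzymes are the most abundant transcripts in freshly sorted satellite cells, CPM were divided by exon length in kilobases (CPM per kb). *Kdm6b*, a Jumonji demethylase that erases the Polycomb methyl mark on histone H3, stood far above the rest with 415 CPM per kb in quiescent WT and 412 CPM per kb in quiescent KO cells. The next highest in quiescent WT were the deacetylases *Sirt2* (29.9 CPM per kb) and *Sirt1* (25.5 CPM per kb), followed by the demethylase *Kdm1a* (17.1 CPM per kb) and *Kmt2e* (16.9 CPM per kb). The lowest were *Kdm4d* (0.244 CPM per kb), *Hdac9* (0.359 CPM per kb), *Hdac8* (0.626 CPM per kb), *Sirt5* (0.742 CPM per kb) and *Tet1* (0.840 CPM per kb). In activated WT cells *Kdm6b* was still first with 48.9 CPM per kb, but *Kmt5a* came next with 37.3 CPM per kb, followed by *Kdm1a* (24.2 CPM per kb), *Suz12* (15.8 CPM per kb) and *Kdm2a* (11.9 CPM per kb). *Kdm6b* alone held 40.5% to 49.4% of the 51 genes' counts in quiescent libraries and 9.16% to 16.0% in activated libraries. The summed level of all 51 genes was 5077 to 7532 CPM in quiescent and 2209 to 2920 CPM in activated libraries. Without *Kdm6b* the sums were 2601 to 4278 CPM and 1995 to 2454 CPM, so that the ranges stayed apart.

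**Figure D1:**
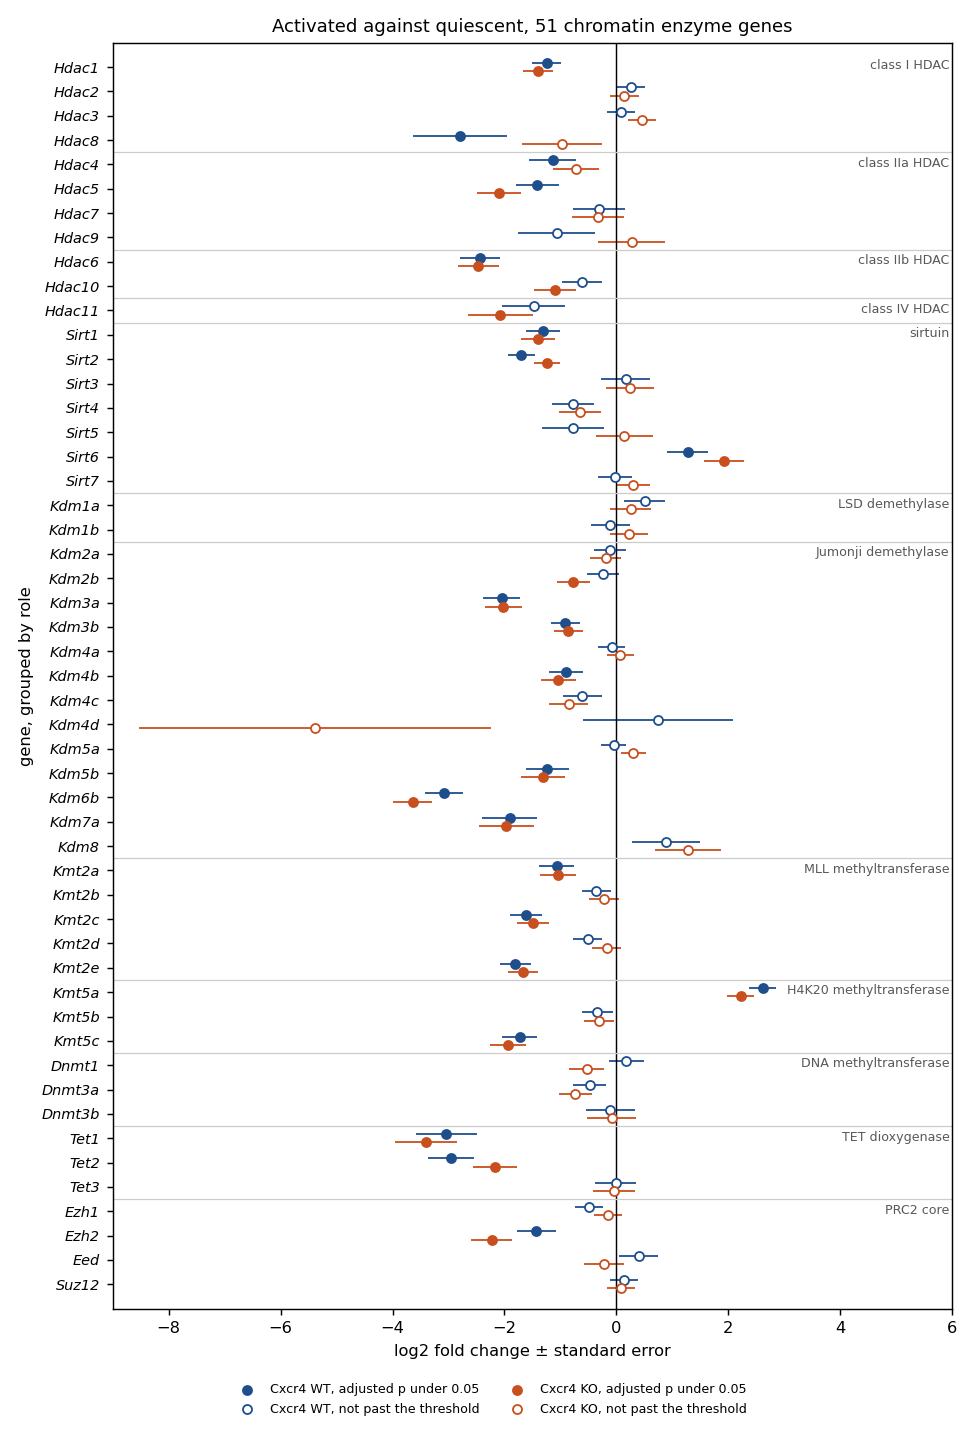
Log2 fold change of each enzyme gene in activated against quiescent cells, with *Cxcr4* WT and *Cxcr4* KO plotted separately, genes grouped by role and bars for the SE. Filled points passed an adjusted p under 0.05: *Kmt5a* and *Sirt6* rose in both genotypes and 18 genes fell in both. Of all genes tested, 11.5% rose and 18.3% fell in WT, and 13.3% rose and 20.4% fell in KO.

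To learn how the enzymes changed upon activation, activated cells were compared with quiescent cells within each genotype. In WT, 22 of the 51 genes changed, 2 up and 20 down, where 29.8% of all genes tested changed (11.5% up and 18.3% down). In KO, 23 changed, 2 up and 21 down, where 33.7% of all genes tested changed (13.3% up and 20.4% down). With an additional fold beyond 2, the counts were 2 up and 18 down in WT, beside 26.8% of all genes (9.76% up and 17% down), and 2 up and 19 down in KO, beside 30.3% (11.2% up and 19% down). In WT, 11 of the 51 log2 fold changes were above 0 and 40 below, with a median of -0.61. The median over all genes tested was -0.92 and that over protein-coding genes was -0.59. In KO, 14 were above and 37 below 0, with a median of -0.73, beside -0.96 for all genes and -0.66 for protein-coding genes. The median of the enzymes thus lay close to that of protein-coding genes, and the share that fell was larger than the 23.5% (WT) and 26.3% (KO) of protein-coding genes that fell. Of the 51 genes, 18 fell in both genotypes, 2 rose in both and 26 passed in neither. The share of all genes tested that passed in both genotypes was not counted. *Hdac10*, *Hdac11* and *Kdm2b* passed the test with a fall in KO only, and *Hdac4* and *Hdac8* passed with a fall in WT only. DESeq2 called 23 of the 51 in WT (37.9% of all genes it tested) and 24 in KO (39.2%). None of these was shown to differ between the genotypes: in the test of the difference, 0 of the 51 genes passed (0% of all genes tested). Without the second activated WT library fewer of the enzymes changed in WT, and without the first activated KO library fewer changed in KO. All genes tested also had fewer calls in these fits.

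The histone H4 methyltransferases moved apart from each other. *Kmt5a* (ENSMUSG00000049327, chromosome 5, 124439930 to 124462308, plus strand) makes the single-methyl mark on histone H4 that *Kmt5b* and *Kmt5c* extend. It was at 35.7, 29.4, 28.5 and 35.8 CPM in quiescent WT, 40.3, 25.1, 35.5 and 40.9 CPM in quiescent KO, 194 and 202 CPM in activated WT, and 172 and 158 CPM in activated KO libraries. All activated libraries were far above all quiescent libraries. The level rose 6.11-fold in WT (log2 2.61, SE 0.24, adjusted p = 1.61e-07) and 4.65-fold in KO (log2 2.22, SE 0.24, adjusted p = 8.42e-07), and *Kmt5a* moved from rank 29 to rank 2 of the 51 genes by CPM per kb in WT and from rank 21 to rank 2 in KO. *Kmt5c*, on chromosome 7, was at 24.9, 33.6, 38.9 and 37.1 CPM in quiescent WT, 31.8, 24.7, 40.4 and 30.5 CPM in quiescent KO, 9.48 and 10.9 CPM in activated WT, and 7.71 and 8.90 CPM in activated KO libraries. Every activated library lay below every quiescent one, with a log2 fold change of -1.73 (SE 0.32, adjusted p = 0.00033) in WT and -1.94 (SE 0.32, adjusted p = 0.000105) in KO. *Kmt5b*, the other enzyme that extends the mark, did not pass, with log2 fold changes of -0.34 (SE 0.27) and -0.31 (SE 0.27).

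The promoters of *Kmt5a* and *Kmt5c* are shown because these relatives moved in opposite directions. Each is 250 bases before to 50 bases after the RefSeq start on GRCm38.p6, 5′ to 3′ on the gene's strand, with matches to the searched motifs in capitals.
Kmt5a promoter, chr5:124439680-124439979, plus strand: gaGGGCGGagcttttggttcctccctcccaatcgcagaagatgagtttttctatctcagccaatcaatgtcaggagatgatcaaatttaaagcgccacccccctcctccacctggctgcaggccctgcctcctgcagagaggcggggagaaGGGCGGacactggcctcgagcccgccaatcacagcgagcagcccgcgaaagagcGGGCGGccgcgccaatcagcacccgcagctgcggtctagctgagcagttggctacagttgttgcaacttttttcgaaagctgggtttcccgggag
Kmt5c promoter, chr7:4739877-4740176, plus strand: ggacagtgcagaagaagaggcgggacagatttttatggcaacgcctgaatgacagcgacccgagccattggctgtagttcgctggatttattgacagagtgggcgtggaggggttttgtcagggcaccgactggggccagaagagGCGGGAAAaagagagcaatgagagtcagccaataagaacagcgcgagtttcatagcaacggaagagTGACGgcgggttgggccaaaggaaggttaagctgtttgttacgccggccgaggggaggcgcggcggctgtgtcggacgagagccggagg
The motifs searched on both strands were the AP-1 site TGANTCA, the CRE TGACGTCA, its shorter core TGACG that every CRE also holds, the E2F site TTTNNCGC and the GC box GGGCGG. The capitals in the *Kmt5a* window are 3 GC boxes, and those in the *Kmt5c* window are 1 E2F match, on the opposite strand, and 1 shorter CRE core. Of the 51 genes, 41 matched the RefSeq promoter table by symbol; *Hdac1*, *Hdac3*, *Hdac10*, *Kdm2a*, *Kdm3b*, *Kdm4b*, *Kdm5a*, *Kdm6b*, *Kmt2b* and *Kmt2e* had no entry. Among the 41, 27 held a GC box, 12 the shorter CRE core, 4 an E2F match, 1 an AP-1 match and 0 a full CRE, beside 35.7%, 20.8%, 5.17%, 7.81% and 1.79% of all 32851 promoters in the table. The median number of CpG dinucleotides was 22 in the 41 windows and 7 in all promoters, and GC boxes hold a CpG. Of the 41 windows, 28 lay within 100 bases of the gene's 5′ end in GENCODE, and that of *Sirt1* was 42669 bases away. Where a gene had several RefSeq starts, such as the 3 of *Kmt5a*, the start nearest to that end was used. Whether these cells use the chosen starts was not tested. These matches are letters in a window, and no binding was measured.

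Among the Kmt2 enzymes, which methylate histone H3 at promoters and enhancers, 3 of 5 fell in each genotype and none rose. *Kmt2e*, a family member with little methyltransferase activity of its own, was at 137 to 202 CPM in quiescent WT and 133 to 192 CPM in quiescent KO and at 45.1 to 58.6 CPM in activated libraries, with log2 fold changes of -1.81 in WT (SE 0.28, adjusted p = 5.13e-05) and -1.67 in KO (SE 0.27, adjusted p = 9.80e-05). *Kmt2c*, which acts at enhancers, fell by 1.61 and 1.48 on the log2 scale, and *Kmt2a*, the founding MLL gene, by 1.07 and 1.05. The *Kmt2a* call was lost when 1 activated library was left out: in WT without the second (-0.75, adjusted p = 0.242), and in KO without the first (-0.96, adjusted p = 0.147) or the second (-1.12, adjusted p = 0.0748). *Kmt2d*, the closest relative of *Kmt2c*, had log2 fold changes of -0.51 (adjusted p = 0.133) and -0.18 (adjusted p = 0.585), and *Kmt2b* had -0.36 and -0.22. *Kmt2d* was at 221 to 372 CPM in quiescent and 179 to 270 CPM in activated libraries, and these ranges overlapped.

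The Jumonji demethylases made up the largest group, and 6 of 13 fell in WT and 7 of 13 in KO, with none rising. *Kdm6b* (ENSMUSG00000018476, chromosome 11, 69398508 to 69413675, minus strand) was at 3146, 2500, 3099 and 2790 CPM in quiescent WT and 2704, 2475, 3027 and 3254 CPM in quiescent KO libraries. After culture it was at 467 and 214 CPM in WT and at 229 and 231 CPM in KO libraries. It was 8.46-fold lower in activated WT cells (log2 -3.08, SE 0.34, adjusted p = 1.49e-06) and 12.5-fold lower in activated KO cells (log2 -3.64, SE 0.35, adjusted p = 2.98e-07), with the quiescent and activated libraries far apart. Without the first activated WT library the WT value was -3.67. *Kdm3a*, which removes methyl groups from lysine 9 of histone H3, was at 93.1, 86.1, 147 and 146 CPM in quiescent WT, 98.8, 79.8, 101 and 141 CPM in quiescent KO, 34.0 and 22.3 CPM in activated WT, and 24.4 and 27.4 CPM in activated KO libraries. Its log2 fold changes were -2.05 (SE 0.33, adjusted p = 8.50e-05) and -2.02 (SE 0.33, adjusted p = 8.95e-05), nearly the same size in both genotypes. *Kdm7a*, which reads an active mark and erases repressive ones, was at 105, 92.2, 203 and 269 CPM in quiescent WT, 92.3, 87.2, 125 and 285 CPM in quiescent KO, 45.6 and 43.8 CPM in activated WT, and 29.5 and 45.9 CPM in activated KO libraries. The quiescent libraries spread widely, and its log2 fold changes of -1.90 (SE 0.49, adjusted p = 0.0063) and -1.96 (SE 0.49, adjusted p = 0.00462) had larger errors. Without the first activated KO library the KO value was -1.69 (adjusted p = 0.0646) and no longer passed.

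The remaining Jumonji genes changed less. *Kdm5b*, an eraser of the active methyl mark of promoters, fell by 1.24 in WT and 1.31 in KO on the log2 scale, *Kdm4b* by 0.90 and 1.04, and *Kdm3b* by 0.91 and 0.86. These calls rested on single libraries. Without the second activated WT library the WT values were -0.67 for *Kdm5b* (adjusted p = 0.336), -0.65 for *Kdm4b* (adjusted p = 0.318) and -0.70 for *Kdm3b* (adjusted p = 0.212), and without the first they were -2.12 (adjusted p = 0.00384), -1.08 (adjusted p = 0.0898) and -1.02 (adjusted p = 0.0611). Without the first activated KO library the KO values were -1.13 (adjusted p = 0.142), -1.11 (adjusted p = 0.0842) and -0.81 (adjusted p = 0.159), and without the second *Kdm4b* had -0.96 (adjusted p = 0.13) and *Kdm3b* -0.90 (adjusted p = 0.105). The WT call of *Kdm4b* was also lost without quiescent WT replicate 3 (adjusted p = 0.0673) or 4 (adjusted p = 0.0636), and in the fit with a replicate block *Kdm4b* (adjusted p = 0.0533) and *Kdm5b* (adjusted p = 0.0572) did not pass in WT. Their relatives *Kdm5a* (-0.05 and 0.30), *Kdm4a* (-0.08 and 0.07), *Kdm4c* (-0.61 and -0.86) and *Kdm2a* (-0.11 and -0.19) did not pass in either genotype, nor did *Kdm8* (0.89 and 1.28). *Kdm2b* passed in KO only (-0.77, adjusted p = 0.0479) and had -0.24 in WT, and the KO call was lost without any 1 of the 6 KO libraries, with adjusted p of 0.0519 to 0.408 and -0.53 without the second activated one. With all libraries kept, the KO call of *Kdm2b* was also lost in several fits, among them no filter (adjusted p = 0.111) and the replicate block (adjusted p = 0.0665). *Kdm4d* was close to the limit of detection: in quiescent libraries it was at 0.0415 to 1.49 CPM, and in activated libraries it was at 0 in 3 of 4. The amine oxidase demethylases did not pass: *Kdm1a*, which erases marks of active promoters in the CoREST complex, had log2 fold changes of 0.51 (SE 0.37) and 0.25 (SE 0.37), and *Kdm1b* had -0.11 and 0.23. *Kdm1a* was at 53.4 to 145 CPM in quiescent and 95.4 to 146 CPM in activated libraries.

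**Figure D2:**
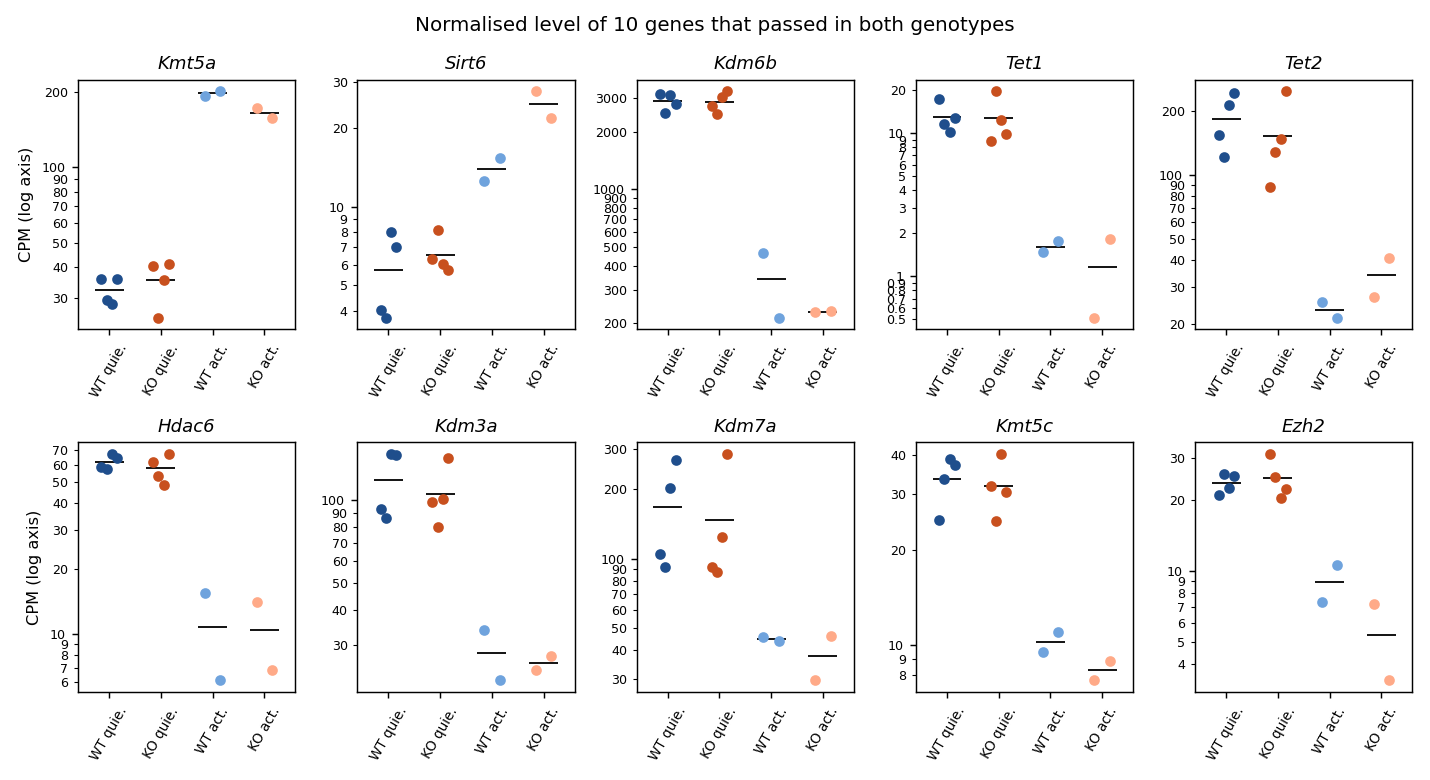
CPM of the 2 enzyme genes that rose in both genotypes and of the 8 with the largest falls in both, 1 point per library on a log axis, with quiescent and activated *Cxcr4* WT and KO groups in separate columns. For each of the 10 genes the activated libraries lay outside the range of the quiescent libraries of the same genotype.

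Among the 11 HDAC genes, none rose and 5 fell in each genotype, although not the same 5. *Hdac6*, a largely cytoplasmic enzyme that deacetylates tubulin, was at 58.7, 57.5, 67.5 and 64.2 CPM in quiescent WT, 61.8, 53.1, 48.7 and 67.4 CPM in quiescent KO, 15.5 and 6.13 CPM in activated WT, and 14.1 and 6.84 CPM in activated KO libraries. The groups lay far apart, with log2 fold changes of -2.44 (SE 0.36, adjusted p = 3.56e-05) and -2.47 (SE 0.36, adjusted p = 3.01e-05). Without the first activated library of the genotype the values were -3.26 in WT and -3.07 in KO. *Hdac6* is X-linked, and the state and the sex of the mice cannot be told apart for it. Of the class I enzymes, which sit in nuclear corepressor complexes, *Hdac1* fell in both genotypes (log2 -1.25 and -1.40), whereas *Hdac2* (0.26 and 0.14) and *Hdac3* (0.08 and 0.46) did not pass. *Hdac8*, the X-linked class I gene, passed in WT (log2 -2.80, SE 0.84, adjusted p = 0.0162) and not in KO (-0.97, SE 0.72), at 0 to 1.28 CPM in activated libraries. Without the second activated WT library, in which it had 0 counts, the WT value was -2.14 (adjusted p = 0.179), and no fold is given without the first, which leaves a group at 0. Of the class IIa enzymes, which repress Mef2 targets in muscle, *Hdac5* fell in both genotypes, from 98.2 to 116 CPM in quiescent WT to 54.7 and 24.5 CPM in activated WT (log2 -1.41, SE 0.38, adjusted p = 0.00786) and from 66.3 to 174 CPM in quiescent KO to 18.2 and 36.3 CPM in activated KO (log2 -2.10, SE 0.39, adjusted p = 0.00037). Without the second activated WT library the WT value of *Hdac5* was -0.91 (adjusted p = 0.171), and without the first it was -2.05 (adjusted p = 0.003). *Hdac4* was at 71.3, 76.6, 116 and 169 CPM in quiescent WT and at 45.1 and 53.9 CPM in activated WT libraries (log2 -1.14, SE 0.42, adjusted p = 0.0482). This call was lost without quiescent WT replicate 3 (-1.09, adjusted p = 0.0791) or 4 (-0.83, adjusted p = 0.123) and without either activated WT library (-0.93, adjusted p = 0.301, and -1.21, adjusted p = 0.145). With all libraries kept, DESeq2's size factors, a mean count of at least 10 and removal of the ribosomal RNA gene also lost the WT call. The replicate block and centring on expressed coding genes lost it too, with adjusted p of 0.0519 to 0.0753 over these fits. In KO *Hdac4* was at 66.4, 60.3, 94.2 and 187 CPM and then at 58.6 and 64.8 CPM, with overlapping groups (log2 -0.73, SE 0.41, adjusted p = 0.171). As for *Kdm3a*, *Kdm7a* and *Tet2*, quiescent WT replicates 3 and 4 and quiescent KO replicate 4 were the highest of their genotype. The 9 satellite cell markers summed to 7076, 8014 and 8551 CPM in these 3 libraries and to 5143 to 6106 CPM in the other 5 quiescent libraries, and the 6 endothelial markers to 407, 476 and 222 CPM in these and to 369 to 986 CPM in the others. Their part in these levels was not tested. *Hdac7* (-0.31 and -0.32) and *Hdac9* (-1.07 and 0.27) did not pass. *Hdac10*, a polyamine deacetylase, and *Hdac11*, the sole class IV enzyme, passed in KO with -1.10 and -2.08 and had -0.62 and -1.48 in WT. The *Hdac10* call was lost without the second activated KO library (-0.61, adjusted p = 0.41) or quiescent KO replicate 3 (-1.05, adjusted p = 0.0535), and was -1.80 without the first activated one. The *Hdac11* call was lost without the first activated KO library (-1.63, adjusted p = 0.142), and was -2.80 without the second.

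The sirtuins were mixed, with 1 of 7 rising and 2 of 7 falling in each genotype. *Sirt6*, a nuclear deacetylase tied to DNA repair and glycolysis, was at 4.02, 3.76, 8.03 and 7.03 CPM in quiescent WT, 6.31, 8.13, 6.06 and 5.71 CPM in quiescent KO, 12.6 and 15.3 CPM in activated WT, and 27.7 and 21.9 CPM in activated KO libraries. It rose 2.42-fold in WT (log2 1.27, SE 0.37, adjusted p = 0.0127) and 3.79-fold in KO (log2 1.92, SE 0.35, adjusted p = 0.000294). Without the second activated WT library the WT value was 1.19 (adjusted p = 0.0874) and no longer passed, and the activated values rest on 35 to 108 counts per library. *Sirt1*, the nuclear enzyme that links NAD to histone acetylation, was at 96.7 to 162 CPM in quiescent and 38.6 to 61.9 CPM in activated libraries, and fell in both genotypes (log2 -1.32 and -1.41), with the WT call lost without the second activated WT library (-1.08, adjusted p = 0.0679). *Sirt2*, mainly a cytoplasmic deacetylase, was at 129 to 160 CPM in quiescent and 44.3 to 67.3 CPM in activated libraries, and fell as well (log2 -1.70 and -1.24). The mitochondrial *Sirt3* (0.16 and 0.24), *Sirt4* (-0.77 and -0.65) and *Sirt5* (-0.78 and 0.14), and the nucleolar *Sirt7* (-0.02 and 0.30), did not pass.

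The TET genes differed among themselves. *Tet2*, on chromosome 3, was at 154, 122, 213 and 241 CPM in quiescent WT, 88.0, 129, 148 and 247 CPM in quiescent KO, 25.3 and 21.5 CPM in activated WT, and 27.0 and 40.8 CPM in activated KO libraries, with log2 fold changes of -2.95 (SE 0.41, adjusted p = 2.03e-05) and -2.17 (SE 0.39, adjusted p = 0.000258). *Tet1*, on chromosome 10, was at 17.4, 11.6, 10.3 and 12.7 CPM in quiescent WT, 8.76, 19.7, 12.4 and 9.92 CPM in quiescent KO, 1.47 and 1.75 CPM in activated WT, and 0.514 and 1.83 CPM in activated KO libraries. It fell by 3.04 (SE 0.55, adjusted p = 0.00028) and 3.40 (SE 0.56, adjusted p = 0.000102) on the log2 scale, with only 9, 4, 2 and 8 counts in the activated libraries. The KO value was -2.79 without the first activated KO library and -4.59 without the second. *Tet3*, the family member without a fall, was at 80.2 to 135 CPM in quiescent WT and at 132 and 74.0 CPM in activated WT libraries, with log2 fold changes of -0.01 (SE 0.37) and -0.04 (SE 0.37). The DNA methyltransferases did not pass in either genotype: *Dnmt1*, which copies methylation after replication, had 0.17 (SE 0.31) and -0.53 (SE 0.32), and the de novo enzymes *Dnmt3a* and *Dnmt3b* had -0.47 and -0.74, and -0.11 and -0.08. Of the Polycomb repressive complex 2 core only the catalytic subunit *Ezh2* passed. It was at 20.9, 25.8, 22.4 and 25.1 CPM in quiescent WT, 31.2, 24.9, 20.4 and 22.1 CPM in quiescent KO, 7.35 and 10.5 CPM in activated WT, and 7.19 and 3.42 CPM in activated KO libraries, with log2 fold changes of -1.43 (SE 0.35, adjusted p = 0.00386) and -2.22 (SE 0.36, adjusted p = 9.98e-05). Without the first activated library of the genotype the WT value was -1.09 (adjusted p = 0.134) and the KO value was -2.84. The alternative catalytic subunit *Ezh1* had -0.49 and -0.16, the scaffold *Suz12* had 0.14 and 0.08, and the mark-reading *Eed* had 0.40 and -0.23.

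The enzymes that fell were often long. Of the 51 genes, 25 lay in the longest of 4 equal groups of protein-coding genes (6497 exon bases or more), and 13 of these 25 fell in WT and 13 in KO, where 35.5% and 37.5% of all protein-coding genes of that length fell. In the shortest group 14% and 16.7% fell. The median exon length was 6093 bases for the enzymes and 4181.5 bases for protein-coding genes. Across the 51 genes, Spearman's rho between exon length and log2 fold change was -0.319 in WT and -0.16 in KO, and across 17310 protein-coding genes it was -0.033 and -0.017. Genes are not independent replicates, and all points of a comparison share the same libraries. The part of length in the results was not tested.

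**Figure D3:**
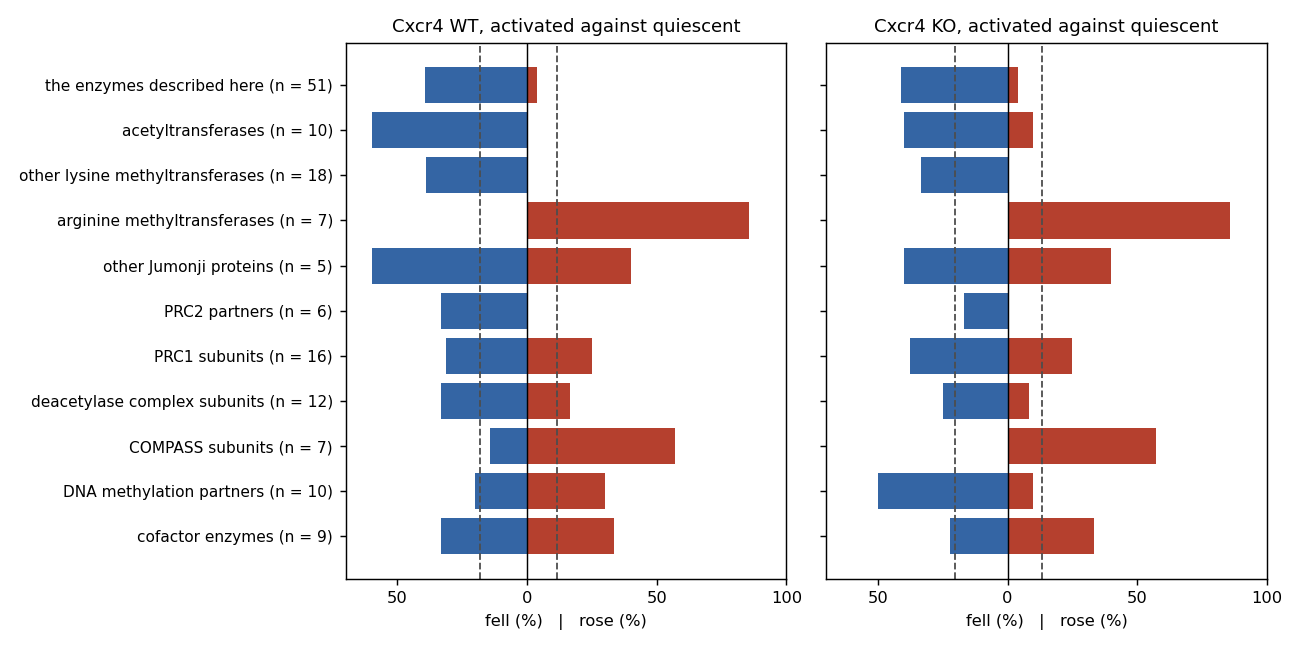
Share (percent, bars) of each list of chromatin genes that rose (to the right) or fell (to the left) in activated against quiescent cells of each genotype, with dashed lines for the share of all genes tested that did so. The arginine methyltransferases and the COMPASS subunits lie on the rising side, and the enzymes described here on the falling side.

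Other genes that act with these enzymes were grouped by role and counted in the same comparison, with the WT count given before the KO count. Of the 7 arginine methyltransferases, 6 rose and none fell in each genotype, with median log2 fold changes of 1.27 and 1.60. *Prmt5*, which makes symmetric dimethylarginine on histones and splicing proteins, was at 21.8 to 40.6 CPM in quiescent and 104 to 174 CPM in activated libraries (log2 2.08 and 2.09), and *Prmt6* had 1.94 and 1.74. *Prmt2* did not pass (-0.10 and -0.73). Of the 7 COMPASS subunits, which serve the Kmt2 enzymes, 4 rose in each genotype and 1 and 0 fell, with medians of 1.27 and 1.29. *Rbbp5* was at 9.51 to 12.2 CPM in quiescent and 35.4 to 38.1 CPM in activated libraries (log2 1.75 and 1.73), and *Dpy30* had 1.64 and 1.29. *Rbbp5* and *Dpy30* rose in the cells in which *Kmt2a*, *Kmt2c* and *Kmt2e* fell.

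Of the 10 acetyltransferases, which oppose the deacetylases, 0 rose and 6 fell in WT and 1 rose and 4 fell in KO, among them *Kat6b* (-1.77 and -1.95) and *Kat5* (-1.35 and -0.92). Of the 18 other lysine methyltransferases none rose and 7 and 6 fell. The largest fall was that of *Dot1l*, the methyltransferase of the histone H3 core, which was at 609 to 1431 CPM in quiescent and 119.5 to 191 CPM in activated libraries (log2 -2.41 and -2.55), and *Nsd3* had -1.30 and -1.59. Of the 5 other Jumonji proteins, 2 rose in each genotype, *Riox1* (1.70 and 1.21) and *Riox2* (1.88 and 1.18), and 3 and 2 fell, among them *Jmjd1c* (-2.36 and -2.84) and *Phf2* (-1.38 and -1.06). Both that rose are ribosomal oxygenases. Of the 6 partners of Polycomb repressive complex 2 none rose and 2 and 1 fell, with *Jarid2* at -2.24 and -1.31. Of the 16 subunits of Polycomb repressive complex 1, 4 rose in each genotype and 5 and 6 fell, with *Phc2* (1.85 and 1.96) and *Pcgf6* (1.35 and 1.40) up and the chromodomain subunit *Cbx7* (-2.2 and -1.77) down.

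Of the 12 subunits of deacetylase complexes, 2 and 1 rose and 4 and 3 fell. *Rcor2* rose (1.46 and 1.71) while its relative *Rcor1* (-1.19 and -0.98) and the remodeller *Chd4* (-1.76 and -1.90) fell. Of the 10 DNA methylation partners, 3 and 1 rose and 2 and 5 fell, with *Mbd3* (1.45 and 1.28) up and *Gadd45b* (-1.25 and -2.48) and *Gadd45a* (-1.47 and -1.18) down. Of the 9 enzymes that make or break down the cofactors, 3 rose in each genotype and 3 and 2 fell. *Nmnat1*, the nuclear NAD-producing enzyme, rose (2.2 and 2.30), and *Mat2a*, which makes the methyl donor S-adenosylmethionine, fell (-2.84 and -2.49) from 249 to 422 CPM in quiescent to 31.5 to 63.4 CPM in activated libraries, while its regulatory subunit *Mat2b* rose (1.00 and 1.58). Among markers of other cells, 0 rose and 2 and 1 of 6 endothelial markers fell, 0 and 1 rose and 3 of 7 fibroadipogenic markers fell in each genotype, and 0 rose and 3 and 5 of 7 blood cell markers fell. The part of such transcripts in the results was not tested.

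**Figure D4:**
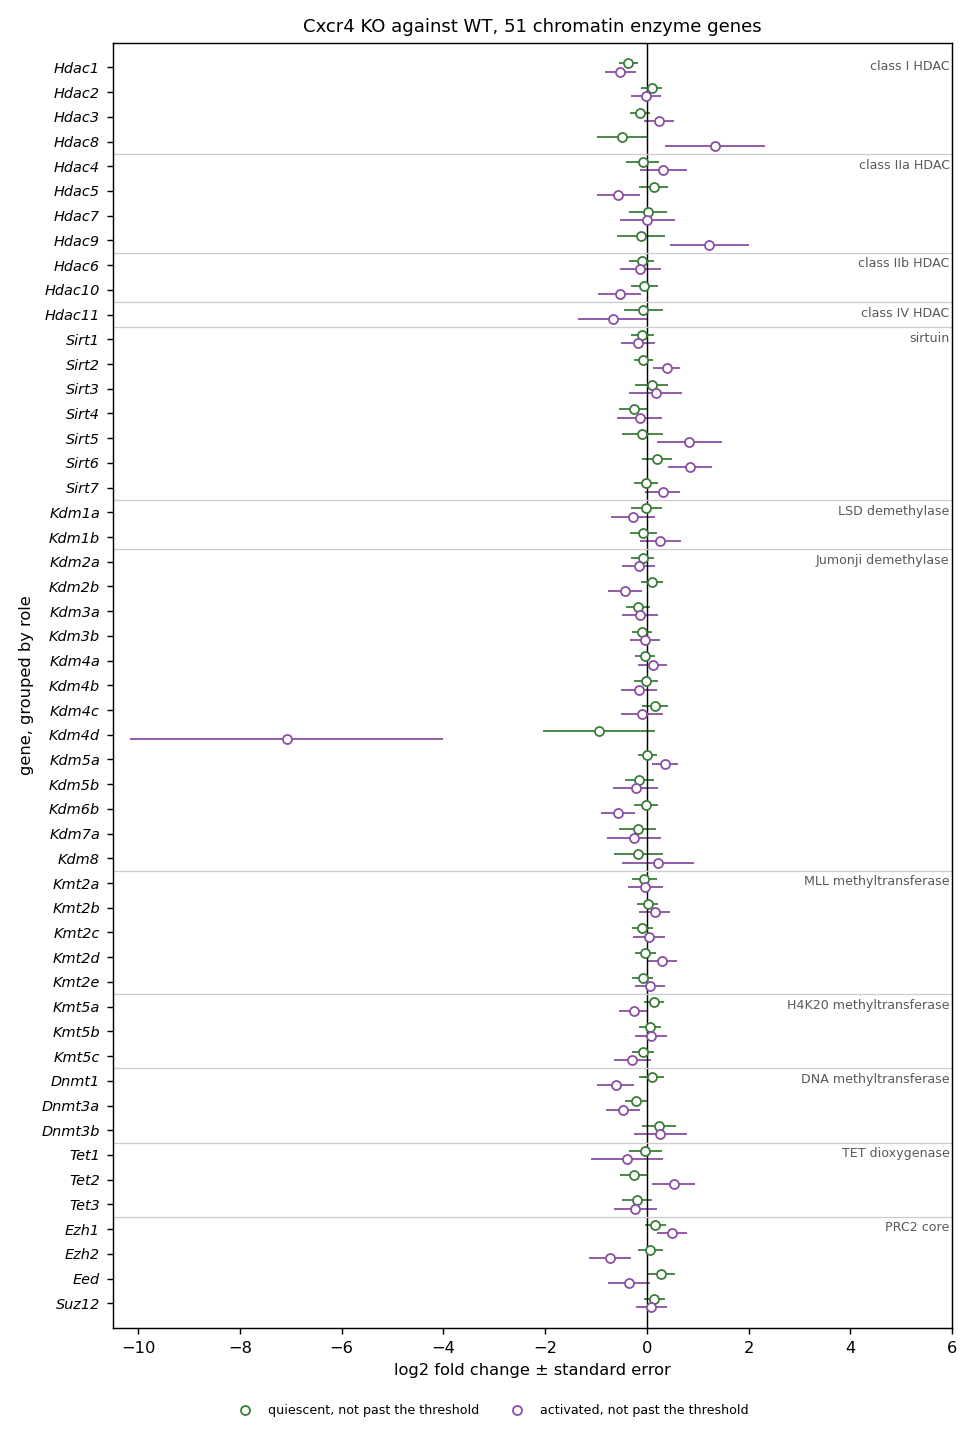
Log2 fold change of each enzyme gene in *Cxcr4* KO against *Cxcr4* WT cells, quiescent and activated cells separately, with bars for the SE. None passed an adjusted p under 0.05 in either state, and the point far to the left is *Kdm4d*, with 0 counts in both activated KO libraries.

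To test whether loss of *Cxcr4* altered these enzymes, KO was compared with WT in each state. *Cxcr4* itself was at 61.2, 59.1, 89.6 and 112 CPM in quiescent WT and 17.6, 21.2, 12.5 and 17.1 CPM in quiescent KO libraries (log2 -2.24, SE 0.31, adjusted p = 0.00477). In activated cells it was at 33.3 and 14.4 CPM in WT and 5.39 and 13.7 CPM in KO libraries and did not pass (log2 -1.35, SE 0.46, adjusted p = 0.381). The second activated KO library (13.7 CPM) was level with the second activated WT library (14.4 CPM), so that the deletion was not evident in it at the RNA level, and the value ran from -2.24 without that KO library to -0.69 without the first activated WT library. In quiescent cells 0 of the 51 enzymes differed, where 4 genes (0.0155%) passed in all, and 0 of the 51 had an unadjusted p under 0.05 by edgeR, where 1.74% of all genes did. DESeq2 called 0 of the 51 and 5 genes in all (0.0107%). The log2 fold changes ran from -0.95 (*Kdm4d*) to 0.28 (*Eed*) with a median of -0.05, and the 95% interval lay within a change of 2-fold in either direction for 47 of the 51 genes. In activated cells 0 of the 51 differed, where 13 genes (0.0504%) passed in all, and 1 had an unadjusted p under 0.05, where 8.37% of all genes did. DESeq2 called 0 of the 51 and 145 genes in all (0.914%). The interval lay within 2-fold for 20 of the 51, and for the other 31 it did not exclude a change of that size. In the test of whether the effect of genotype differed between the states, 0 of the 51 passed by edgeR or by DESeq2, which called 0% and 0.341% of all genes, and 0 had an unadjusted p under 0.05, where 6.59% of all genes did.

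The genes with the smallest unadjusted p in each state did not pass, with adjusted p from edgeR of 0.55 or more. In quiescent cells they were *Hdac1* (log2 -0.36, SE 0.19, 95% interval -0.77 to 0.04, unadjusted p = 0.0765 by edgeR), *Eed* (0.28, SE 0.28, interval -0.30 to 0.86) and *Hdac8* (-0.49, SE 0.49, interval -1.52 to 0.54). *Eed* was at 12.9, 6.81, 15.3 and 13.8 CPM in WT and 14.8, 19.1, 11.8 and 13.8 CPM in KO libraries, and *Hdac8* at 2.51, 2.98, 3.51 and 3.13 CPM in WT and 1.93, 1.91, 2.7 and 2.08 CPM in KO libraries. The groups overlapped for both genes. In activated cells they were *Kdm4d*, *Sirt6* (log2 0.84, SE 0.43, adjusted p = 0.623, interval -0.06 to 1.74) and *Ezh2* (-0.73, SE 0.41, adjusted p = 0.675, interval -1.59 to 0.13). *Kdm4d*, a testis-rich demethylase, had 13 counts in the first activated WT library and 0 in the other three activated libraries. Against the limit of 3 counts over the KO group (0.362 CPM) the WT group (1.55 CPM) was at least 4.27-fold higher (adjusted p = 0.55), and without that library both groups were at 0. The activated KO libraries were above both WT libraries for *Sirt6* and below both for *Ezh2*. Such separation was common among the enzymes with so few libraries per group. In activated cells the KO libraries lay above the WT libraries for 10 enzymes and below for 6, and the groups overlapped for 35. The share of all genes tested that separated in this way was not counted, so these counts are not a result about the enzymes. Separation therefore does not set *Sirt6* and *Ezh2* apart from the other enzymes.

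The replication maintenance enzyme *Dnmt1* had a log2 fold change of -0.61 in activated KO against WT cells and its recruiting factor *Uhrf1*, chosen after its values were seen, had -1.89 (SE 0.43, adjusted p = 0.133). *Uhrf1* was at 26.8 and 24.5 CPM in activated WT and 7.45 and 6.39 CPM in activated KO libraries, beside 6.47 to 14.6 CPM in the quiescent libraries. Against quiescent cells it rose in WT (1.41, SE 0.34, adjusted p = 0.00366) and had -0.66 (SE 0.38, adjusted p = 0.18) in KO. Of 15 S phase genes, 6 rose and 2 fell on activation in WT and 3 rose and 5 fell in KO, and 2 were lower in activated KO than in activated WT cells, *Mcm4* (-2.2) and *Rrm2* (-2.79). Of 10 mitosis genes, 0 rose and 3 and 7 fell on activation, and 1 was lower in activated KO cells, *Foxm1* (-3.37, adjusted p = 0.0480 by edgeR). The smallest adjusted p of the S phase genes there was 0.0356, where 13 genes (0.0504%) passed in all. These calls depended on the fit, with all libraries kept. With a mean count of at least 10, or with edgeR on the compared groups alone, 0 genes were called lower in activated KO cells. The other fits called 4 (DESeq2's size factors) to 207 genes (no filter) lower, with 87 by DESeq2. Whether *Mcm4*, *Rrm2* and *Foxm1* were among them is not reported here. The paper lists *Mcm4* and *Rrm2* as lower in activated KO cells and does not list *Foxm1*. The difference between the genotypes' responses did not pass for any gene of either list, and the part of these genes in the values of *Dnmt1* and *Ezh2* was not tested.

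**Figure D5:**
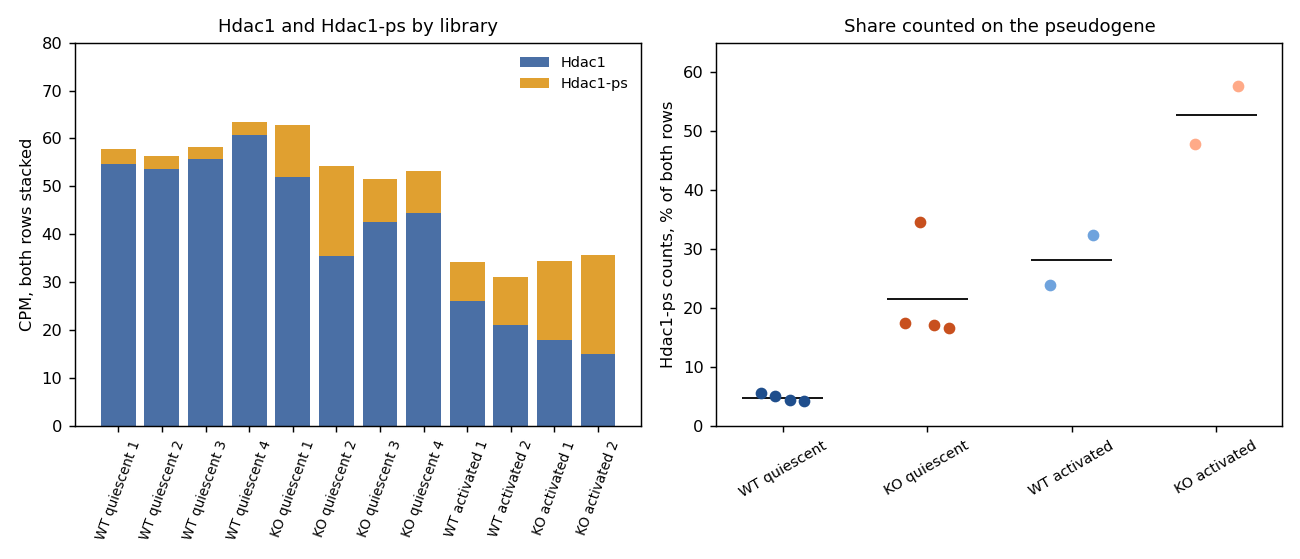
CPM assigned to *Hdac1* and to its processed copy *Hdac1-ps* in each library, and the share of their summed counts that was assigned to the copy, with 1 point per library and lines for group means. The share was 4.26% to 5.60% in quiescent WT and 16.7% to 34.6% in quiescent KO libraries, while the summed CPM of these groups overlapped.

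*Hdac1* (ENSMUSG00000028800, chromosome 4, 129516104 to 129542713, minus strand) needs a separate account, since it has a near-identical processed copy, *Hdac1-ps*, on chromosome 17 (78491582 to 78493025, plus strand). The 1444 bases of the copy aligned without gaps to the 2038-base *Hdac1* transcript with 1435 identical bases and 9 single-base differences, all within the coding part of *Hdac1* (bases 85 to 1533), and the longest run without a difference was 450 bases. Reads that fall inside such a run cannot be told apart. The windows below hold 3 of the 9 differences and show how alike the transcripts are, with the differing base in capitals and positions counted from the 5′ end of each GRCm38 transcript.
Hdac1, position 426: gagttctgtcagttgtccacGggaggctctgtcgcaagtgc
Hdac1-ps, position 342: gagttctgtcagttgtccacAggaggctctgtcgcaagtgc
Hdac1, position 803: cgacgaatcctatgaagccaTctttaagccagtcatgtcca
Hdac1-ps, position 719: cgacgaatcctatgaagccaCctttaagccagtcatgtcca
Hdac1, position 1254: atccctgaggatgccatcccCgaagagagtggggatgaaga
Hdac1-ps, position 1170: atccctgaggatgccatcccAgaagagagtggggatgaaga
*Hdac1* alone was at 54.6, 53.6, 55.7 and 60.7 CPM in quiescent WT, 51.9, 35.5, 42.7 and 44.4 CPM in quiescent KO, 26.0 and 21.0 CPM in activated WT, and 18.0 and 15.1 CPM in activated KO libraries. Every KO library was below every WT library of its state. The row of *Hdac1-ps* was at 2.54 to 3.24 CPM in quiescent WT and at 8.85 to 18.8 CPM in quiescent KO libraries. The paper lists *Hdac1-ps* among the genes that differed in quiescent cells, higher in KO. The copy held 4.81% ± 0.63 of the summed counts in quiescent WT (SD, n = 4), 21.5% ± 8.75 in quiescent KO (SD, n = 4), 28.2% ± 5.99 in activated WT (SD, n = 2) and 52.7% ± 7.02 in activated KO libraries (SD, n = 2). The sum of both was 57.8, 56.4, 58.3 and 63.4 CPM in quiescent WT and 62.9, 54.3, 51.5 and 53.3 CPM in quiescent KO libraries, and 34.1 and 31.1 CPM in activated WT and 34.4 and 35.6 CPM in activated KO libraries, so that WT and KO overlapped in quiescent cells. With the pair summed, the log2 fold change of KO against WT was -0.09 (SE 0.18) in quiescent cells, beside -0.36 for *Hdac1* alone, and 0.10 (SE 0.27) in activated cells, beside -0.52 for *Hdac1* alone. The fall on activation was kept for the sum, with -0.85 (SE 0.24, adjusted p = 0.0103) in WT and -0.66 (SE 0.23, adjusted p = 0.0339) in KO, beside -1.25 and -1.40 for *Hdac1* alone. Less similar processed copies of *Hdac1*, *Gm5824* (96.28% identity) and *Gm4864* (94.55%), held 97 and 278 counts over the 12 libraries, beside 8158 for *Hdac1*. They were not added to the sum. How reads matching several places were counted is not given in the sources used here.

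Exons of several enzyme genes also overlap other genes, and strand use in the counting is not given in the sources used here. The share of exon bases that overlap was 24.6% for *Kdm3b*, 22.4% for *Hdac4*, 17.9% for *Hdac11*, 12.7% for *Sirt3*, 9.31% for *Kmt2e* and 4.11% for *Kdm6b*, the last with the opposite-strand gene *Kdm6bos*. Reads in these stretches can come from either gene, and the levels of *Kdm3b*, *Hdac4* and *Hdac11* are the least certain in this respect. *Gm26538*, the gene that overlaps *Kdm3b*, has no row in the counts, so that no reads were assigned to it.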

How the data were processed

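The authors trimmed reads with Trim Galore 0.6.0, mapped them to GRCm38.p6/mm10 with STAR 2.7.2a and used Rsubread to count reads per GENCODE gene, and the deposited counts are whole, unnormalized numbers of reads. A deposited FPKM table with 1 value per group was not used. All 12 count columns were matched to the sample labels.

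From the counts, filterByExpr kept 25771 genes, which were tested with edgeR 4.0.16 in R 4.3.3 (TMM, 1 mean per group, quasi-likelihood F test, Benjamini-Hochberg adjustment). Scripts were tested on simulated data. Other lists and markers were described by counts and medians. Per-library values were given for genes passing in both genotypes in the same direction, up to 8 with the largest change each way, and for the 3 smallest unadjusted p-values where none passed. List examples were the largest changes passing in both genotypes, apart from *Uhrf1* and *Prmt2*. The values of 1 listed gene are not reported here. Near copies of the enzyme genes were searched with blastn 2.17.0, and *Hdac1* and *Hdac1-ps* were aligned with Biopython's local pairwise aligner. Exon lengths came from GENCODE on GRCm38. The members and lists were chosen with earlier results of these data known.

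Alternatives were DESeq2 1.42.0, DESeq2's size factors in edgeR, no filter, a mean count of at least 10, removal of the ribosomal RNA gene, the replicate number as a block, edgeR on the compared groups alone, the summed *Hdac1* pair and leaving out each library. Centring on expressed coding genes and leaving out both second activated libraries were chosen after seeing the data.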

Additional observations from a re-analysis of the deposited data

Results flagged for a closer look

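In 102 groups of 4 quiescent libraries (51 genes in 2 genotypes), 4 libraries stood far from the others of their group by Dixon's test at 95%, where chance alone gives about 1 in 20 groups. *Sirt3* was at 3.41 CPM in the second quiescent WT library and at 5.64 to 6.07 CPM in the others. *Sirt4* was at 24.5 CPM in the third quiescent WT library and at 12.2 to 14.0 CPM in the others. *Kdm4c* was at 10.9 CPM in the fourth quiescent KO library and at 15.9 to 16.1 CPM in the others. *Kdm4d* was at 1.49 CPM in the second quiescent WT library and at 0.351 to 0.522 CPM in the others. None of these genes passed the test in any comparison.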

How the results depend on the processing

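In KO against WT cells of either state, and in the difference between those effects, the count of enzymes called was 0 under every alternative run. In activated against quiescent cells the count was 22 in WT and 23 in KO, and 20 to 23 and 22 to 24 under the alternatives that kept all libraries. Leaving out 1 library at a time gave 13 to 22 in WT and 17 to 23 in KO, and leaving out both second activated libraries gave 13 and 17. Where an activated library was left out, all genes tested also had fewer calls in these comparisons. With the replicate block in the fit the counts were 20 in WT (3 up and 17 down) and 24 in KO (3 up and 21 down). The numbers were not taken to pair the libraries: the correlations of same-numbered WT and KO deviations were 0.24, 0.16, -0.27 and 0.59 in quiescent and -0.07 and -0.07 in activated cells. Of the 20 enzymes that changed in both genotypes, 11 did so in every fit: *Hdac1*, *Hdac6*, *Sirt2*, *Kdm3a*, *Kdm6b*, *Kmt2c*, *Kmt2e*, *Kmt5a*, *Kmt5c*, *Tet1* and *Tet2*. Without both second activated libraries 8 of the 20 no longer passed in WT: *Sirt6* (1.17, adjusted p = 0.0967), *Kdm7a* (-1.84, adjusted p = 0.0635), *Sirt1* (-1.10, adjusted p = 0.0627), *Hdac5* (-0.93, adjusted p = 0.145), *Kmt2a* (-0.77, adjusted p = 0.252), *Kdm3b* (-0.72, adjusted p = 0.203), *Kdm5b* (-0.70, adjusted p = 0.326) and *Kdm4b* (-0.67, adjusted p = 0.311). Of these, *Kmt2a*, *Sirt1*, *Kdm4b* and *Kdm3b* were also lost in KO, with adjusted p of 0.0523 to 0.13. For *Kdm4d* in activated KO against WT cells, fitted values that are no bound ran from -8.10 to 0 when 1 library was left out, with 0 without the first activated WT library, and for *Hdac1* there the value was -0.52 alone and 0.10 with its copy. Scaling moved the median of all genes by at most 0.0905 (log2). Depth limits the activated libraries, where *Tet1*, *Hdac8* and *Kdm4d* had few counts.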
